A study of Homo sapiens with 10 samples.

Results

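The endothelial identity genes are 47 genes that mark the cells lining blood and lymph vessels, taken as a named list by a rule that uses no measured value, though with earlier results of these data known, and all 47 were found among the 58302 genes of the tables. They comprise 11 receptors, 4 ligands, 9 transcription factors, 13 junction and surface proteins, 7 genes of haemostasis, vessel tone and leukocyte adhesion, and 3 scavenger receptors of sinusoidal and lymphatic endothelium. They were read by RNA-Seq in 10 libraries, 1 per condition, from 3 human lines labelled as hepatocellular carcinoma (HCC). SK-hep1 cells, written SK-Hep1 in the labels, gave 5 libraries: mock control, cells overexpressing PSPC1, an RNA-binding protein of nuclear paraspeckles, cells overexpressing PSPC1 with the tyrosine kinase PTK6, and cells carrying PSPC1-Y523F, whose tyrosine is replaced by phenylalanine, without or with PTK6. Mahlavu cells gave 3: mock control, PSPC1-CT131, the C-terminal piece of PSPC1, and Mut-NLS-CT131, in which the nuclear localization sequence of that piece is mutated. Huh-7 cells gave 2: untreated control cells and cells given 10 ng/ml of hepatocyte growth factor (HGF) for 48 h. The study's methods name selected stable clones for its animal work and do not say whether the sequenced transfectants were clones or pools.

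Endothelial cells receive vascular endothelial growth factor (VEGF) through the receptor tyrosine kinases KDR, FLT1 and FLT4 and angiopoietins through TEK, they seal their contacts with the cadherin CDH5, and they hold blood fluid with thrombomodulin and nitric oxide. Transcription factors of the ETS family, above all ERG and FLI1, and SOX factors of the F group keep this programme on, and PROX1 turns it towards lymphatic endothelium. In the liver, the endothelium of the sinusoids carries the scavenger receptors STAB1 and STAB2. SK-hep1 is widely described as a line of endothelial rather than hepatocyte origin, whereas Huh-7 is a hepatocyte-like tumour line that makes albumin.

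Promoters of 6 endothelial identity genes are shown here, 4 of members that stood at 1 FPKM or more in every SK-hep1 library and 2 of members that stayed below it in all 10 libraries, because the core motif of ETS factors is the sequence feature that could be read in both sets. FPKM are reads scaled by gene length and by library depth, so they compare levels between genes. The sequences are from RefSeq on GRCh38.p14, run from 250 bases before to 50 after the gene's start, 5′ to 3′ on the gene's strand, and are limited to members with 1 such window. Capitals mark GGAA, the core that ETS factors bind, or TTCC, the same core on the other strand. ENG encodes endoglin, a co-receptor for TGF-β family ligands, and its window is chr9:127854609-127854908 on the minus strand. PROCR encodes the endothelial receptor of protein C, with a window at chr20:35171822-35172121 on the plus strand. ROBO4 encodes an endothelial member of the roundabout receptors, at chr11:124897816-124898115 on the minus strand. NRP2 encodes neuropilin 2, a co-receptor for VEGF and semaphorins, at chr2:205682251-205682550 on the plus strand. Of the low members, KDR encodes the main signalling receptor for VEGF, at chr4:55125546-55125845 on the minus strand, and TIE1 an orphan receptor that partners TEK, at chr1:43300732-43301031 on the plus strand.
ENG: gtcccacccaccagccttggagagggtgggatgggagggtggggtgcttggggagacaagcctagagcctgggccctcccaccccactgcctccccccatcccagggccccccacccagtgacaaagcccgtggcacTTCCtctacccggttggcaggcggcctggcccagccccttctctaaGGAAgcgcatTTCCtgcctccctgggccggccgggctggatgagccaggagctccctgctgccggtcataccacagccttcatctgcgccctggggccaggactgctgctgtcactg
PROCR: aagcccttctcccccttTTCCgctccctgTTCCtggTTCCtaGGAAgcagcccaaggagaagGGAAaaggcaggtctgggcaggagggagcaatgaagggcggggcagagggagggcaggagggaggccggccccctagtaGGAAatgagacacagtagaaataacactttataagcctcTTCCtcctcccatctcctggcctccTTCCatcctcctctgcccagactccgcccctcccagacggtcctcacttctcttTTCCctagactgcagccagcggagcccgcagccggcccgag
ROBO4: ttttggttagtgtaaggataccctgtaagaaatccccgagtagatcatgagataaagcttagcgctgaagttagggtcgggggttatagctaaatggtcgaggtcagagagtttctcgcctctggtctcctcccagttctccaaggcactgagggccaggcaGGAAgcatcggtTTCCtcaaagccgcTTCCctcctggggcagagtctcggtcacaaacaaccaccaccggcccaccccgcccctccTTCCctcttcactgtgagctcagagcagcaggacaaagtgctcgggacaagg
NRP2: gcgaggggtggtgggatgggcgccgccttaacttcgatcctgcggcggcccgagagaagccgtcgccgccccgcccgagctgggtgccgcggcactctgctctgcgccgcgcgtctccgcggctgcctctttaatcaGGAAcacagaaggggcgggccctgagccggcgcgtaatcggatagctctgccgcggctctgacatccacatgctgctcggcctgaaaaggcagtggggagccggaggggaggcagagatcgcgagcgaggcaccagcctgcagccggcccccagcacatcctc
KDR: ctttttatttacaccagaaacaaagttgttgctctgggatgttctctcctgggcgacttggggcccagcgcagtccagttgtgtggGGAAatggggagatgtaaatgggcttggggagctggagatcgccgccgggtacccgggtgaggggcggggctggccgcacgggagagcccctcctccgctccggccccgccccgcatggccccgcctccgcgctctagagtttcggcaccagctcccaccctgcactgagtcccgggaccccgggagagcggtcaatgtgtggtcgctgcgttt
TIE1: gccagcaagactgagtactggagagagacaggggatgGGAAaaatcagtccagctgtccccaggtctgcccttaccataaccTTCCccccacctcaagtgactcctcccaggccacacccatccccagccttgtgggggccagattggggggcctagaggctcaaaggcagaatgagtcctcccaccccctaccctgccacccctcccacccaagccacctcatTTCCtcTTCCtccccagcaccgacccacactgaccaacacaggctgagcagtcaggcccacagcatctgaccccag

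The core was counted 9 times in the PROCR window, 4 times in ROBO4, 3 times in ENG and 1 time in NRP2, against 4 times in TIE1 and 1 time in KDR. RefSeq windows were matched for 26 of the 47 genes, 37 windows in all. GGAA on either strand was in 36 of the 37, or 97.3%, and in 95.5% of the 35116 windows of all 27305 genes, with a median of 4 and 3 matches per window. The medians of the expressed and the low members lay close together. The 10 windows of the 7 members at 1 FPKM or more in every SK-hep1 library held a median of 3.5, and the 21 windows of the 14 members below 1 FPKM in all libraries a median of 4. The medians of base composition lay further apart. The expressed members' windows had a median GC content of 63.3% with 13.5 CpG dinucleotides. The low members' windows had 54.3% with 4, against 58.7% and 14 over all windows. The ranges overlapped, at 42.7% to 80.3% against 38.3% to 77% GC and 8 to 44 against 0 to 53 CpG. These medians are over windows, and some genes have more than 1. The matches of the core describe the letters of the windows and show no binding.

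The libraries held 15245935 to 24278662 reads on genes, where the Huh-7 totals were recovered from FPKM and are no deposited counts. The study calls SK-hep1 PSPC1-deficient, and PSPC1 was at 0 FPKM with 0 reads in the mock library, 7.01 FPKM with PSPC1, 26.4 with PSPC1/PTK6, 2.28 with PSPC1-Y523F and 70.9 with PSPC1-Y523F/PTK6. In Mahlavu, PSPC1 stood at 47.3 FPKM in mock, 30.8 in the PSPC1-CT131 library and 22.5 in the Mut-NLS-CT131 library. Both were lower than mock, although the labels name overexpression of the C-terminal of PSPC1 and of a nuclear localization sequence mutation of PSPC1. PTK6 stood at 16.7 and 10.5 FPKM in the SK-hep1 libraries that received it and at 4.09 to 5.69 FPKM in the other 3. All 15 hepatocyte markers were at 1 FPKM or more in both Huh-7 libraries, and only SERPINA1 was in the SK-hep1 and Mahlavu libraries, where albumin (ALB) was at 0 in all 8. With 1 library per condition, no difference below has a replicate check and no p-value is given, and the read intervals cover counting error only.

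Most endothelial identity genes were at or near 0 in all 3 lines. In SK-hep1, 12 of the 47 reached 1 FPKM in mock, 13 with PSPC1, 16 with PSPC1/PTK6, 13 with PSPC1-Y523F and 13 with PSPC1-Y523F/PTK6. In Mahlavu the numbers were 16 in mock, 16 in PSPC1-CT131 and 14 in Mut-NLS-CT131, and in Huh-7 they were 11 without and 13 with HGF. These are 23.4% to 34.0% of the list, whereas of 19817 protein-coding genes 54.7%, 54.7%, 56.9%, 54.1% and 54.3% reached 1 FPKM in the SK-hep1 libraries in the same order, 58.3%, 56.4% and 57.2% in the Mahlavu libraries, and 60.3% and 60.5% in the Huh-7 libraries. The line of described endothelial origin held no more of the list than Mahlavu did. In bulk RNA, fewer cells of a type and less RNA per cell cannot be told apart, so a low level may be a low level in every cell or a higher one in few.

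Of the 47 genes, 24 stayed below 1 FPKM in all 10 libraries, and the highest value among them was 0.817 FPKM, for VWF in HGF-treated Huh-7. The mucin EMCN and the lectin-like CLEC14A, both on the endothelial surface, were at 0 in every library. Reads were known in every library for 21 of the 24, and 14 of these had at most 10 reads in any of them. Summed over the list, the members held 467 to 627 FPKM in SK-hep1, 202 to 274 FPKM in Mahlavu and 283 to 285 FPKM in Huh-7. The larger sum in SK-hep1 rested on few genes, since ENG alone gave 149.5 to 246 FPKM of it and EGFL7, ETS1 and PROCR most of the rest. Only NRP1, NRP2, EGFL7, HHEX and PROCR reached 1 FPKM in all 10 libraries.

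**Figure D1:**
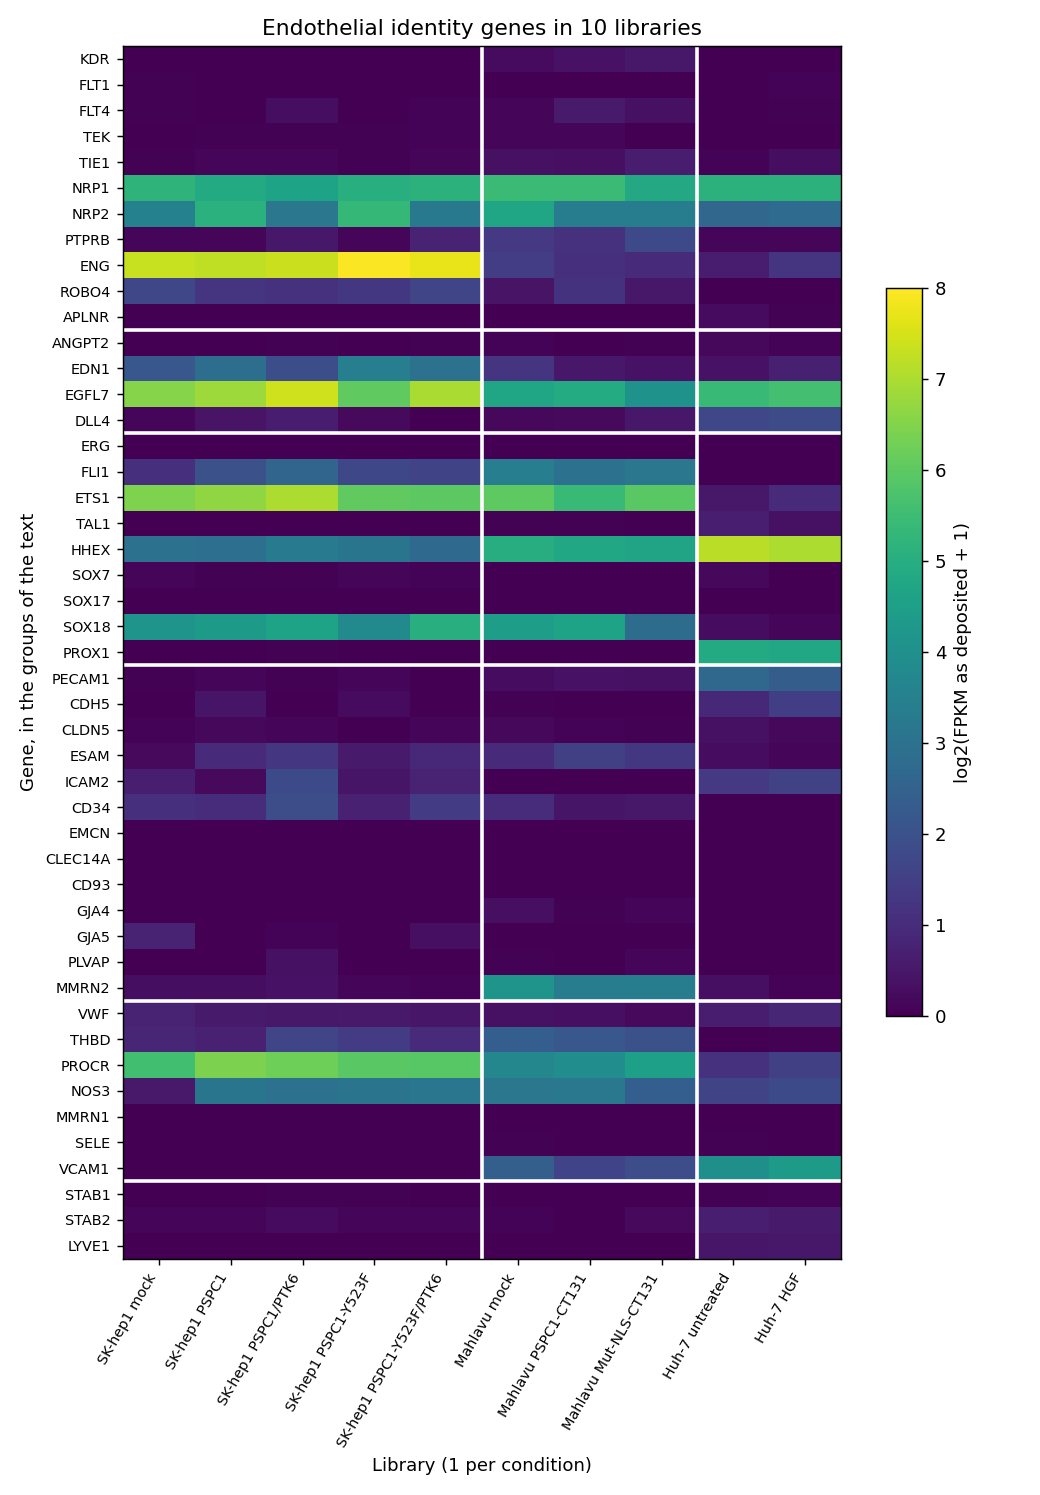
The 47 endothelial identity genes, in rows by the groups of the text, in the 10 libraries, in columns by cell line. Colour gives log2 of the deposited FPKM plus 1, and a reader should see 24 rows that stay below 1 FPKM throughout, ENG bright in the 5 SK-hep1 columns only and PROX1 in the 2 Huh-7 columns only.

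**Figure D2:**
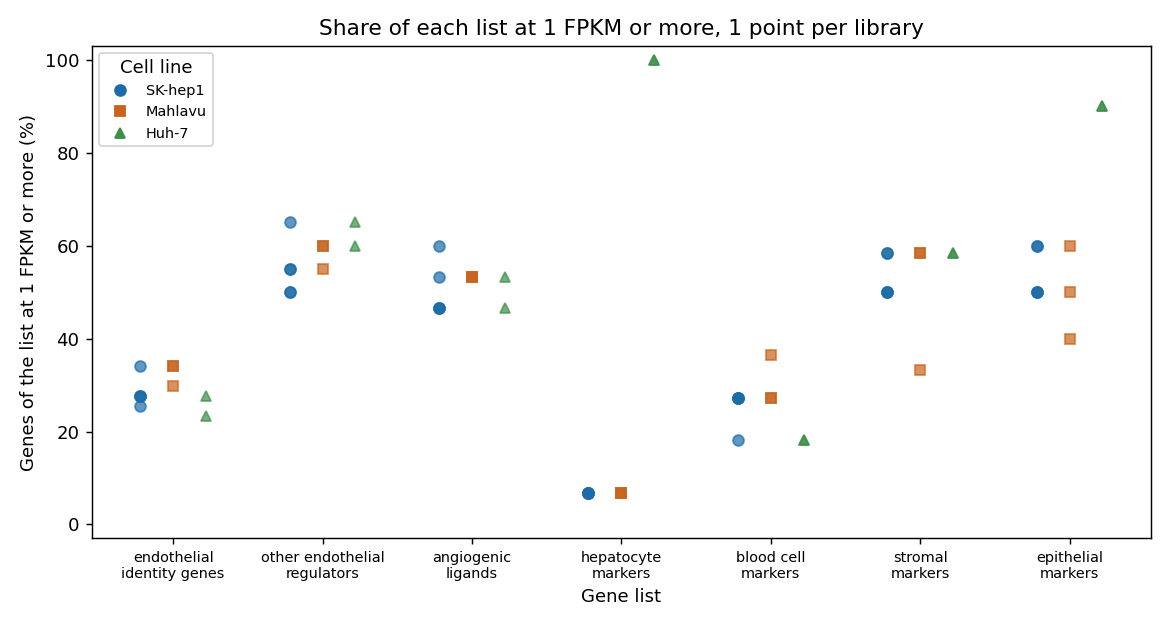
Share of each gene list at 1 FPKM or more, in percent, with 1 point per library and colour for the cell line. The endothelial identity genes lie between 23.4% and 34.0% in every library, while the hepatocyte markers lie at 100% in both Huh-7 libraries and at 6.67% in the other 8.

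Among the receptors, those that define endothelium by their tyrosine kinase activity were nearly absent, and ENG set SK-hep1 apart. KDR had 0 reads in all 5 SK-hep1 libraries, which allows at most 0.0433 to 0.0520 FPKM at 3 reads, 0 reads in both Huh-7 libraries, and 11, 18 and 23 reads in the Mahlavu libraries. FLT1, FLT4, TEK, TIE1 and the apelin receptor APLNR were below 1 FPKM throughout, the highest being TIE1 at 0.527 FPKM in Mut-NLS-CT131. ENG (chromosome 9, 127815012 to 127854756) stood at 159 FPKM in mock, 149.5 with PSPC1, 163 with PSPC1/PTK6, 246 with PSPC1-Y523F and 210.0 with PSPC1-Y523F/PTK6 in SK-hep1. In Mahlavu, ENG stood at 1.75 FPKM in mock, 1.13 in PSPC1-CT131 and 0.937 in Mut-NLS-CT131. In Huh-7, ENG stood at 0.546 FPKM without and 1.34 with HGF. The SK-hep1 libraries lay above all others, while Mahlavu and Huh-7 overlapped, and the lowest SK-hep1 value was 85.4-fold above the highest in Mahlavu and 112-fold above the highest in Huh-7. An antisense gene overlapping ENG stood at 0.608 to 2.28 FPKM, and the counting is not stated to use strand.

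ROBO4, which steadies vessel walls, was low but present in SK-hep1, at 2.28 FPKM in mock, 1.31 with PSPC1, 1.18 with PSPC1/PTK6, 1.48 with PSPC1-Y523F and 2.21 with PSPC1-Y523F/PTK6. In Mahlavu, ROBO4 stood at 0.337 FPKM in mock, 1.25 in PSPC1-CT131 and 0.432 in Mut-NLS-CT131, which overlaps the SK-hep1 range. It was at 0 in both Huh-7 libraries, which puts the lowest SK-hep1 library at least 10.2-fold higher against a floor of 3 reads per library. The neuropilins, which also serve neurons and tumour cells, were present in all lines: NRP1 held 23.9 to 35.5 FPKM in SK-hep1, 27.1 to 43.2 FPKM in Mahlavu and 34.1 and 34.4 FPKM in Huh-7, and its lines overlapped. NRP2 stood at 5.27 FPKM without and 5.93 with HGF in Huh-7 and spread widely within the other lines, whose values are given with the constructs. PTPRB, the phosphatase that restrains TEK, held 1.19 to 2.39 FPKM in Mahlavu and at most 0.691 FPKM elsewhere.

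Of the ligands, EGFL7, a secreted protein that endothelial cells lay down in vessel tubes, was the most abundant. It stood at 92.2 FPKM in mock, 112 with PSPC1, 171 with PSPC1/PTK6, 64.8 with PSPC1-Y523F and 126 with PSPC1-Y523F/PTK6 in SK-hep1. In Mahlavu, EGFL7 stood at 25.4 FPKM in mock, 29.4 in PSPC1-CT131 and 16.0 in Mut-NLS-CT131, and in Huh-7 at 42.3 FPKM without and 47.7 with HGF. SK-hep1 lay above both other lines, by 2.20-fold between its lowest library and the highest of Mahlavu, and Huh-7 lay between. EDN1, the precursor of the vasoconstrictor endothelin 1, stood at 3.47 FPKM in mock, 6.40 with PSPC1, 2.78 with PSPC1/PTK6, 9.70 with PSPC1-Y523F and 7.07 with PSPC1-Y523F/PTK6 in SK-hep1. It stood at 1.30 FPKM in mock, 0.422 in PSPC1-CT131 and 0.309 in Mut-NLS-CT131 in Mahlavu and at 0.300 FPKM without and 0.645 with HGF in Huh-7, so that the lowest SK-hep1 library was 4.31-fold above the highest of Huh-7. The Notch ligand DLL4, which marks tip cells and arteries, was at 2.26 FPKM without and 2.65 with HGF in Huh-7 and at most 0.537 FPKM in the 8 other libraries. ANGPT2, the angiopoietin that endothelium stores, had at most 6 reads in any library.

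Of the transcription factors, FLI1, ETS1 and SOX18 were at 1 FPKM or more in all SK-hep1 and Mahlavu libraries and below it in Huh-7, HHEX was above it in all 10 libraries, PROX1 in Huh-7 alone, and the other 4 in none. ERG, the ETS factor most restricted to endothelium, had 1 read in Mahlavu mock and 0 in the other 9 libraries. Its relative FLI1 stood at 1.13 FPKM in mock, 2.99 with PSPC1, 5.15 with PSPC1/PTK6, 2.32 with PSPC1-Y523F and 2.15 with PSPC1-Y523F/PTK6 in SK-hep1. In Mahlavu, FLI1 stood at 9.73 FPKM in mock, 6.89 in PSPC1-CT131 and 7.93 in Mut-NLS-CT131, above all 5 SK-hep1 libraries, and it was at 0 in Huh-7. Against a floor of 3 reads the lowest SK-hep1 library was at least 17.8-fold and the lowest Mahlavu library at least 108-fold above Huh-7. SENCR, an antisense gene that overlaps FLI1, stood at 0.323 to 2.67 FPKM in SK-hep1 and Mahlavu and at 0 in Huh-7.

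ETS1, an ETS factor that lymphocytes and invasive tumour cells also use, stood at 86.8 FPKM in mock, 101 with PSPC1, 128 with PSPC1/PTK6, 65.8 with PSPC1-Y523F and 62.2 with PSPC1-Y523F/PTK6 in SK-hep1. In Mahlavu, ETS1 stood at 64.1 FPKM in mock, 42.3 in PSPC1-CT131 and 61.4 in Mut-NLS-CT131, and in Huh-7 at 0.444 FPKM without and 0.984 with HGF. SK-hep1 and Mahlavu overlapped, and their lowest libraries were 63.2-fold and 43.0-fold above the highest of Huh-7. SOX18, the F-group SOX factor of vessel and lymphatic development, stood at 16.7 FPKM in mock, 19.6 with PSPC1, 23.8 with PSPC1/PTK6, 13.0 with PSPC1-Y523F and 31.8 with PSPC1-Y523F/PTK6 in SK-hep1. It stood at 21.3 FPKM in mock, 23.8 in PSPC1-CT131 and 6.16 in Mut-NLS-CT131 in Mahlavu and at 0.197 FPKM without and 0.0704 with HGF in Huh-7, with lowest libraries 66.1-fold and 31.3-fold above the highest of Huh-7. Its partners SOX7 and SOX17, and the blood and vessel factor TAL1, stayed below 1 FPKM in all 10 libraries. An entry named PINX1 overlaps SOX7 on the same strand, over 1268 bases of exon, and was at 0 in every library. How reads in both were counted was not tested, so the SOX7 level may be understated.

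HHEX and PROX1, which act in hepatocyte as well as endothelial development, were highest in Huh-7. HHEX stood at 142 FPKM without and 129 with HGF in Huh-7 and at 30.6 FPKM in mock, 26.5 in PSPC1-CT131 and 24.6 in Mut-NLS-CT131 in Mahlavu. In SK-hep1, HHEX stood at 7.01 FPKM in mock, 6.54 with PSPC1, 9.07 with PSPC1/PTK6, 7.59 with PSPC1-Y523F and 5.69 with PSPC1-Y523F/PTK6. The order was Huh-7, Mahlavu and SK-hep1 with no overlap, the lowest Huh-7 library being 4.21-fold above the highest of Mahlavu and 14.2-fold above the highest of SK-hep1. PROX1 stood at 28.4 FPKM without and 26.5 with HGF in Huh-7, had at most 4 reads in any SK-hep1 library and had 0 reads in Mahlavu, at least 723-fold below the lower Huh-7 library. PROX1-AS1, an antisense gene overlapping PROX1, was at 9.59 and 12.5 FPKM in Huh-7 and at 0 elsewhere.

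The junction and surface proteins were low in SK-hep1. CDH5, the cadherin of endothelial contacts, had 0 reads in mock, 14 with PSPC1, 1 with PSPC1/PTK6, 7 with PSPC1-Y523F and 0 with PSPC1-Y523F/PTK6, at most 0.362 FPKM. Its highest levels were in Huh-7, at 0.894 FPKM without and 1.82 with HGF, and Mahlavu had at most 1 read. PECAM1 (CD31), the adhesion protein most used to stain vessels, stood at 5.31 FPKM without and 4.12 with HGF in Huh-7. In Mahlavu, PECAM1 stood at 0.205 FPKM in mock, 0.314 in PSPC1-CT131 and 0.285 in Mut-NLS-CT131, from 6 to 8 reads, and SK-hep1 had 0 to 2 reads in each library. The lower Huh-7 library was 13.2-fold above the highest of Mahlavu, and both of these defining markers were lower in every SK-hep1 library than in either library of the hepatocyte-like line.

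MMRN2, an extracellular matrix protein that binds CLEC14A and CD93, stood at 16.8 FPKM in mock, 9.57 in PSPC1-CT131 and 9.21 in Mut-NLS-CT131 in Mahlavu. It stood at 0.225 FPKM in mock, 0.241 with PSPC1, 0.307 with PSPC1/PTK6, 0.0772 with PSPC1-Y523F and 0.0670 with PSPC1-Y523F/PTK6 in SK-hep1 and at 0.248 FPKM without and 0.0534 with HGF in Huh-7. The lowest Mahlavu library was 30.0-fold above the highest of SK-hep1 and 37.1-fold above the highest of Huh-7, from 216 reads or more against 9 or fewer, while its partners CLEC14A and CD93 were at or near 0 in all lines. ADIRF-AS1 overlaps MMRN2 on the same strand, over 333 bases of exon. It was at 0.612 to 2.45 FPKM in SK-hep1 and at most 0.0687 FPKM in the other libraries. How reads in both were counted was not tested, so the MMRN2 level in SK-hep1 may be understated. CD34, a sialomucin of vessels and stem cells, stood at 1.14 FPKM in mock, 1.02 with PSPC1, 2.71 with PSPC1/PTK6, 0.651 with PSPC1-Y523F and 1.62 with PSPC1-Y523F/PTK6 in SK-hep1. It stood at 1.02 FPKM in mock, 0.360 in PSPC1-CT131 and 0.417 in Mut-NLS-CT131 in Mahlavu and at 0 in both Huh-7 libraries, at least 12.05-fold below the lowest SK-hep1 library. ICAM2, a ligand for leukocyte integrins, was at 1.52 FPKM without and 1.89 with HGF in Huh-7, at 0 in Mahlavu and, in SK-hep1, at 0.596 FPKM in mock, 0.147 with PSPC1, 2.46 with PSPC1/PTK6, 0.377 with PSPC1-Y523F and 0.737 with PSPC1-Y523F/PTK6. ESAM, an adhesion molecule of tight junctions, held 0.148 to 1.39 FPKM in SK-hep1, 0.987 to 1.87 FPKM in Mahlavu and at most 0.195 FPKM in Huh-7. The other 7 members of the group, CLDN5, EMCN, CLEC14A, CD93, GJA4, GJA5 and PLVAP, were below 1 FPKM throughout.

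Of the genes that keep blood fluid and recruit leukocytes, PROCR was the most abundant and its lines did not overlap. It stood at 47.2 FPKM in mock, 85.4 with PSPC1, 73.8 with PSPC1/PTK6, 61.5 with PSPC1-Y523F and 59.4 with PSPC1-Y523F/PTK6 in SK-hep1. It stood at 12.1 FPKM in mock, 14.1 in PSPC1-CT131 and 21.7 in Mut-NLS-CT131 in Mahlavu and at 1.20 FPKM without and 1.86 with HGF in Huh-7, so that SK-hep1 was 2.17-fold above Mahlavu and 25.4-fold above Huh-7, and Mahlavu 6.52-fold above Huh-7, from the lowest library of one line to the highest of the other. THBD, thrombomodulin, which works with PROCR to activate protein C, stood at 0.820 FPKM in mock, 0.662 with PSPC1, 2.21 with PSPC1/PTK6, 1.64 with PSPC1-Y523F and 0.962 with PSPC1-Y523F/PTK6 in SK-hep1. In Mahlavu, THBD stood at 4.23 FPKM in mock, 3.54 in PSPC1-CT131 and 2.96 in Mut-NLS-CT131, while Huh-7 had 0 and 2 reads. VWF, the clotting protein of Weibel-Palade bodies, lay at 0.385 to 0.689 FPKM in SK-hep1, 0.163 to 0.274 FPKM in Mahlavu and 0.532 and 0.817 FPKM in Huh-7, with at most 24 reads.

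VCAM1, an adhesion molecule of activated endothelium that tumour cells also carry, stood at 14.7 FPKM without and 19.5 with HGF in Huh-7 and at 4.37 FPKM in mock, 2.02 in PSPC1-CT131 and 2.67 in Mut-NLS-CT131 in Mahlavu. SK-hep1 had 0 or 1 VCAM1 read per library, and the lower Huh-7 library was 3.37-fold above the highest of Mahlavu. NOS3, the endothelial nitric oxide synthase, held 4.23 to 8.31 FPKM in Mahlavu and 2.11 and 2.46 FPKM in Huh-7, and its SK-hep1 values are given with the constructs. MMRN1 and SELE (E-selectin) had at most 2 reads in any library. The scavenger receptors STAB1, STAB2 and LYVE1 were below 1 FPKM in all libraries, the highest being STAB2 at 0.581 FPKM in untreated Huh-7 from 17 reads.

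For a count over the list, a member was taken as higher in one line than in another where its lowest library was at least 2-fold above the other's highest, on FPKM quantile normalized over the 10 libraries with 1 added, among genes whose FPKM averaged 1 or more there. SK-hep1 was higher than Mahlavu for 3 of the 17 members that passed the filter, EGFL7, ENG and PROCR, where 5.96% of all genes were. Mahlavu was higher than SK-hep1 for 3 of 17, HHEX, MMRN2 and VCAM1, where 6.15% of all genes were. SK-hep1 was higher than Huh-7 for 9 of 18, ENG, ROBO4, EDN1, FLI1, ETS1, SOX18, CD34, THBD and PROCR, where 18.1% of all genes were. Huh-7 was higher than SK-hep1 for 4 of 18, HHEX, PROX1, PECAM1 and VCAM1, where 16.8% of all genes were. Mahlavu was higher than Huh-7 for 6 of 14, FLI1, ETS1, SOX18, MMRN2, THBD and PROCR, where 17.7% of all genes were. Huh-7 was higher than Mahlavu for 4 of 14, HHEX, PROX1, PECAM1 and VCAM1, where 16.4% of all genes were. A member that passed only through the line where it is high had to differ. These counts and the medians that follow therefore do not describe the whole list, and nothing is read from their size beside the background. The median difference of the mean log2 values over the members that passed was 0.55 for SK-hep1 less Mahlavu, 1.56 for SK-hep1 less Huh-7 and 1.44 for Mahlavu less Huh-7, beside 0.04, 0.09 and 0.01 over all genes. The 9 members higher in SK-hep1 than in Huh-7 were 7 under each of 3 other scalings. CD34 then lay below 2-fold, at log2 0.72 on the FPKM as deposited, 0.91 with FPKM scaled to one sum and 0.93 with Huh-7 normalized apart from the other lines. THBD lay below 2-fold at 0.83 and 0.85 under the last 2 of these, and did not pass the filter on the FPKM as deposited.

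**Figure D3:**
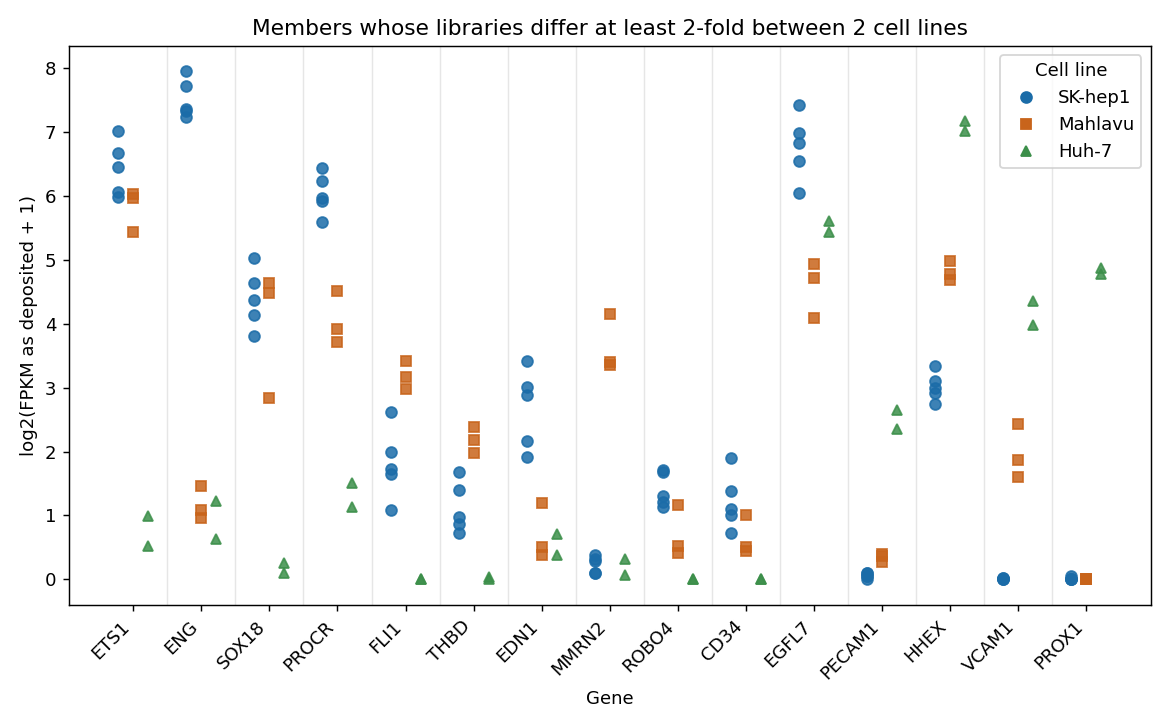
The 15 members whose libraries lie at least 2-fold apart between any pair of lines, as log2 of the deposited FPKM plus 1, with 1 point per library and colour and shape for the line. ETS1, SOX18 and FLI1 are high in SK-hep1 and Mahlavu and near 0 in Huh-7, ENG is high in SK-hep1 alone, and HHEX, VCAM1 and PROX1 are highest in Huh-7.

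Other genes of the endothelial programme, 20 regulators that are no members, were counted by the same rule. SK-hep1 was higher than Mahlavu for 6 of 13 that passed and Mahlavu for 0 of 13, where 5.96% and 6.15% of all genes were. SK-hep1 was higher than Huh-7 for 8 of 14 and Huh-7 for 1 of 14, where 18.1% and 16.8% were. The filter limits these counts too, and nothing is read from their size. The same holds for the other lists below, and the shares of all genes given with the members apply to them. NR2F2, the vein and lymphatic nuclear receptor, held 97.7 to 155 FPKM in SK-hep1, 18.7 to 47.2 FPKM in Mahlavu and 42.8 to 45.7 FPKM in Huh-7. KLF2, which answers blood flow, held 84.4 to 112 FPKM, 14.6 to 26.8 FPKM and 4.78 to 5.18 FPKM in the same order, and the ETS factor ELK3 56.9 to 88.9 FPKM, 12.2 to 18.9 FPKM and 12.4 to 13.7 FPKM. The venous receptor EPHB4 overlapped between the lines, at 74.8 to 118 FPKM in SK-hep1, 33.1 to 86.7 FPKM in Mahlavu and 106 to 114 FPKM in Huh-7. Of 15 angiogenic ligands, which signal to these receptors from outside, 1 of the 10 that passed was higher in SK-hep1 than in Mahlavu and 3 in Mahlavu. VEGFA, the main ligand of KDR, held 17.9 to 35.8 FPKM in SK-hep1, 89.9 to 143 FPKM in Mahlavu and 87.2 to 88.0 FPKM in Huh-7, while KDR itself stayed below 1 FPKM in every library. VEGFC, the lymphatic ligand of FLT4, held 3.16 to 22.6 FPKM in SK-hep1 and 23.3 to 31.7 FPKM in Mahlavu and was at 0 in Huh-7.

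Markers of other cell types differed between the lines beside these genes. SK-hep1 held 3655 to 9434 FPKM of the epithelial keratin KRT8 and 79.3 to 287 FPKM of the stromal collagen COL3A1, while the collagen COL1A2 held 0.256 to 1.82 FPKM there, 26.7 to 44.5 FPKM in Mahlavu and 141 to 150.3 FPKM in Huh-7. Of the stromal markers that passed, 3 of 7 were higher in SK-hep1 than in Mahlavu and 1 of 7 the other way, and 4 of 9 were higher in SK-hep1 than in Huh-7 and 2 of 9 the other way. Their median log2 difference was 0.38 for SK-hep1 less Mahlavu and -0.43 for SK-hep1 less Huh-7. In SK-hep1, the epithelial adhesion genes EPCAM and CDH1 stood at most at 0.0368 and 0.0889 FPKM. Mahlavu held 339 to 612 FPKM of LCP1, an actin-bundling protein of leukocytes, and 16.5 to 55.6 FPKM of the leukocyte integrin ITGB2, while the blood cell marker PTPRC stood at most at 0.0313 FPKM there. Summed over the lists, the 10 epithelial markers held 5440 to 13888 FPKM in SK-hep1, 623 to 1592 in Mahlavu and 1611 to 1650 in Huh-7, the 12 stromal markers 124 to 370, 43.1 to 69.5 and 182 to 198, and the 11 blood cell markers 10.4 to 17.0, 369 to 632 and 56.7 to 56.9. Of each list, 5 to 6 epithelial, 6 to 7 stromal and 2 to 3 blood cell markers reached 1 FPKM in SK-hep1. The part of these differences in the endothelial values was not tested.

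Few members differed at least 2-fold with the constructs, and NOS3 and NRP2 did so most often. NOS3 stood at 0.459 FPKM in SK-hep1 mock (95% Wilson interval 0.287 to 0.735, from 17 reads), 7.67 with PSPC1 (6.80 to 8.65), 6.91 with PSPC1/PTK6 (6.15 to 7.77), 7.39 with PSPC1-Y523F (6.55 to 8.33) and 7.77 with PSPC1-Y523F/PTK6 (6.96 to 8.66). The mock library was the low one, and the 4 transfectants overlapped each other, at 16.7-fold, 15.1-fold, 16.1-fold and 16.9-fold above mock in that order. With 1 added to the quantile-normalized FPKM these were log2 differences of 2.55, 2.10, 2.55 and 2.63. The 4 comparisons share the mock library, so they are 1 observation of it and not 4. That library is also the one with 0 PSPC1 reads, and among the 4 others NOS3 held one level while PSPC1 ran from 2.28 to 70.9 FPKM. ATG9B, a gene on the opposite strand that overlaps NOS3, was at most 0.314 FPKM in SK-hep1. VAV1, a signalling protein of blood cells, was also low in the mock library, at 0.456 FPKM against 5.21, 3.51, 6.46 and 6.09 FPKM in the transfectants in the same order, and what the mock library itself contributes to these differences was not tested. In Mahlavu, NOS3 stood at 7.92 FPKM in mock, 8.31 in PSPC1-CT131 and 4.23 in Mut-NLS-CT131, from 138 to 307 reads.

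NRP2 stood at 10.4 FPKM in mock, 33.8 with PSPC1, 7.97 with PSPC1/PTK6, 38.7 with PSPC1-Y523F and 8.51 with PSPC1-Y523F/PTK6 in SK-hep1, from 433, 1305, 364, 1562 and 395 reads. Both libraries with a form of PSPC1 alone were high, and mock and both libraries with PTK6 were low. PSPC1 alone was 3.23-fold and PSPC1-Y523F alone 3.71-fold above mock, log2 differences of 1.49 and 1.68 after normalization. With PTK6 added, NRP2 was 4.23-fold lower beside PSPC1 and 4.55-fold lower beside PSPC1-Y523F, log2 differences of -2.06 and -1.81, and these 2 comparisons share no library. The libraries with PTK6 also held more PSPC1, 26.4 against 7.01 FPKM beside PSPC1 and 70.9 against 2.28 FPKM beside PSPC1-Y523F. The part of PTK6 and of the PSPC1 level in these NRP2 differences was not tested. In Mahlavu, NRP2 stood at 25.2 FPKM in mock, 9.40 in PSPC1-CT131 and 9.37 in Mut-NLS-CT131, from 1093, 356 and 342 reads. Mock was 2.68-fold above PSPC1-CT131 and 2.69-fold above Mut-NLS-CT131, log2 differences of -1.03 and -1.29 in comparisons that share the mock library. In the PSPC1-CT131 comparison the log2 differences of all genes rose with their GC content, with a Spearman correlation of 0.56 over 12789 genes, and NRP2 stood at -1.15 with GC content and length taken out.

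EDN1, FLI1, SOX18 and ICAM2 differed at least 2-fold in 1 or 2 comparisons each. EDN1, given above by library, was 2.79-fold higher in PSPC1-Y523F than in mock, a log2 difference of 1.24, and 2.30-fold lower in PSPC1/PTK6 than in PSPC1, at -1.28, which became -0.97 on the FPKM as deposited. FLI1 was 4.54-fold higher in PSPC1/PTK6 than in mock on the deposited FPKM, from 380 and 76 reads. After normalization FLI1 stood at 5.12 against 1.79 FPKM, a log2 difference of 1.13. Beside the same mock library it was 0.89 with PSPC1, 0.67 with PSPC1-Y523F and 0.62 with PSPC1-Y523F/PTK6. SOX18 was 3.45-fold lower in Mut-NLS-CT131 than in Mahlavu mock, at -1.56, from 219 and 899 reads. SOX18 was also 2.45-fold higher in PSPC1-Y523F/PTK6 than in PSPC1-Y523F, at 1.16, a difference of 0.89 once GC content and length were taken out. ICAM2 had 13 reads in mock, 3 with PSPC1, 59 with PSPC1/PTK6, 8 with PSPC1-Y523F and 18 with PSPC1-Y523F/PTK6. Its difference between PSPC1/PTK6 and PSPC1, at 1.46 after normalization with 1 added, set 59 reads against 3. The log2 ratio of these reads, scaled by depth, had a 95% interval from 2.44 to 6.38. That ratio has nothing added and is on another scale than the 1.46.

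Over the list, PSPC1 against mock had 2 of 14 members at least 2-fold apart, NRP2 and NOS3, both higher, where 5.4% of all genes were apart, 3.24% higher and 2.17% lower. PSPC1/PTK6 against mock had 2 of 15, FLI1 and NOS3, both higher, where 7.95% of all genes were apart, 4.84% higher and 3.11% lower. PSPC1-Y523F had 3 of 14, NRP2, EDN1 and NOS3, all higher, where 5.13% were apart, 2.75% higher and 2.38% lower. PSPC1-Y523F/PTK6 had 1 of 15, NOS3, higher, where 4.78% were apart, 3.28% higher and 1.5% lower. No member that passed the filter was 2-fold lower than SK-hep1 mock. Members below the filter were not called, and on the deposited FPKM they moved both ways. GJA5 stood at 0.687 FPKM in mock and at 0.0196 to 0.256 FPKM in the transfectants. PTPRB stood at 0.0871 FPKM in mock and at 0.691 FPKM with PSPC1-Y523F/PTK6. The median log2 difference of the members that passed was 0.24, 0.43, 0.28 and 0.34 in the same order, beside -0.02, -0.04, -0.01 and -0.04 over all genes, and all 4 share the mock library. NOS3, at 0.830 FPKM in mock after normalization, passed the filter only through the transfectants, where it is high. Here and in the comparisons that follow, counts and medians therefore do not describe the whole list, and nothing is read from their size beside the background.

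In Mahlavu, PSPC1-CT131 had 1 of 15 members apart, NRP2, lower, where 5.73% of all genes were apart, 2.89% higher and 2.84% lower. Mut-NLS-CT131 had 2 of 15, NRP2 and SOX18, both lower, where 6.02% were apart, 2.99% higher and 3.02% lower. The medians there were 0.11 and -0.29, beside 0.01 and 0.0024. PTK6 added to PSPC1 had 3 of 16 members apart, ICAM2 higher and EDN1 and NRP2 lower, where 4.79% of all genes were apart, 2.94% higher and 1.85% lower. PTK6 added to PSPC1-Y523F had 2 of 15, SOX18 higher and NRP2 lower, where 5.88% were apart, 3.68% higher and 2.2% lower. Both SK-hep1 libraries with PTK6 also held more PSPC1 than the libraries they are compared with here. ICAM2 passed the filter only through PSPC1/PTK6, at 2.54 FPKM after normalization against 0.290 with PSPC1. With 1 to 3 members in each comparison, these shares rest on single genes.

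ENG, ETS1, PROCR, EGFL7, HHEX and NRP1 stayed within 2-fold of mock in all 4 SK-hep1 transfectants, whereas NRP2, also abundant, did not. ENG lay at log2 differences of -0.01 to 0.59 from mock, ETS1 at -0.38 to 0.57, PROCR at 0.38 to 0.83, EGFL7 at -0.45 to 0.87, HHEX at -0.12 to 0.18 and NRP1 at -0.67 to 0.04. Of the 9 Huh-7 members that passed the filter in the comparison with HGF, 0 were 2-fold apart, where 0.596% of all genes were, 0.353% higher and 0.243% lower, and their median log2 difference was 0.13 beside -0.0027 over all genes. The widest were VCAM1 at 0.44, from 14.7 to 19.5 FPKM, and PECAM1 at -0.34, from 5.31 to 4.12 FPKM on 112 and 81 reads. Members below the filter were not called, and on the deposited FPKM they moved both ways. Among those above 0 in both libraries, CDH5, ENG, ETS1, EDN1, TIE1, FLT1 and STAB1 were more than 2-fold higher with HGF. TAL1, CLDN5, MMRN2, SOX18, ESAM, APLNR and SOX7 were more than 2-fold lower, from 0.581 FPKM or less without HGF. The rises rest on few reads, 28 without and 53 with HGF for CDH5, 18 and 41 for ENG, 16 and 33 for ETS1 and 10 and 20 for EDN1. In any library, TIE1 had at most 12 reads, FLT1 at most 3 and STAB1 at most 2.

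Of the other endothelial regulators, 0 of the 12 that passed were 2-fold apart from SK-hep1 mock with PSPC1, and with PSPC1/PTK6 2 of 12 were higher, the receptor ACVRL1, which works with ENG, and the factor KLF4. With PSPC1-Y523F 1 of 12 was lower, ACVRL1, and with PSPC1-Y523F/PTK6 1 of 13 was higher, LYL1, a relative of TAL1. In Mahlavu, PSPC1-CT131 had 3 of 13 higher, ACVRL1, EPHB4 and S1PR1, and Mut-NLS-CT131 had S1PR1 higher and NR2F2 lower among 11. EPHB4 stood at 33.1 FPKM in Mahlavu mock, 86.7 in PSPC1-CT131 and 56.9 in Mut-NLS-CT131, and NR2F2 at 47.2, 38.5 and 18.7 FPKM. Among the angiogenic ligands, PSPC1/PTK6 had JAG2 and VEGFC higher and EFNB2 lower than mock among 8, PSPC1 and PSPC1-Y523F/PTK6 had JAG1 lower among 9 and 8, and PSPC1-Y523F had APLN higher among 10. JAG1, a Notch ligand, stood at 2.41 FPKM in mock, 0.240 with PSPC1, 2.72 with PSPC1/PTK6, 1.06 with PSPC1-Y523F and 0.200 with PSPC1-Y523F/PTK6 in SK-hep1. VEGFC stood at 7.61 FPKM in mock, 5.22 with PSPC1, 22.6 with PSPC1/PTK6, 3.16 with PSPC1-Y523F and 7.56 with PSPC1-Y523F/PTK6 there. PSPC1-CT131 had APLN higher and ANGPT1 and BMP4 lower among 8 ligands, and Mut-NLS-CT131 had BMP4 lower among 8. With HGF no gene of these lists was 2-fold apart. Genes beyond the leading 4 of each list are named here and in what follows after their values were seen.

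Markers of other cell types also differed at least 2-fold with the constructs, and their part in the members' values was not tested. Of the stromal markers, PSPC1-CT131 had ACTA2, TAGLN and THY1 lower and Mut-NLS-CT131 had PDGFRB, TAGLN and THY1 lower than Mahlavu mock, among 7 each, so that TAGLN and THY1 were lower in both. In SK-hep1, COL3A1 was higher with PSPC1/PTK6 among 7, COL1A2 and TAGLN were higher and COL1A1 lower with PSPC1-Y523F among 8, and THY1 was higher with PSPC1-Y523F/PTK6 among 6. Of the epithelial markers, CLDN4 was higher in both Mahlavu transfectants among 5, and KRT8 and KRT18 were lower in Mut-NLS-CT131. KRT19 was higher than SK-hep1 mock with PSPC1 among 6 and with PSPC1-Y523F and PSPC1-Y523F/PTK6 among 5 each, CLDN1 and CLDN4 were higher with PSPC1/PTK6 among 6, and CLDN1 was lower with PSPC1-Y523F. Of the blood cell markers, VAV1 was higher than mock in all 4 SK-hep1 transfectants among 3, CORO1A was lower with PSPC1/PTK6, and ITGB2 was lower in Mut-NLS-CT131 among 3. With PTK6 added, CLDN1 was higher beside both forms of PSPC1, and PDGFRB and THY1 were higher beside PSPC1-Y523F.

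**Figure D4:**
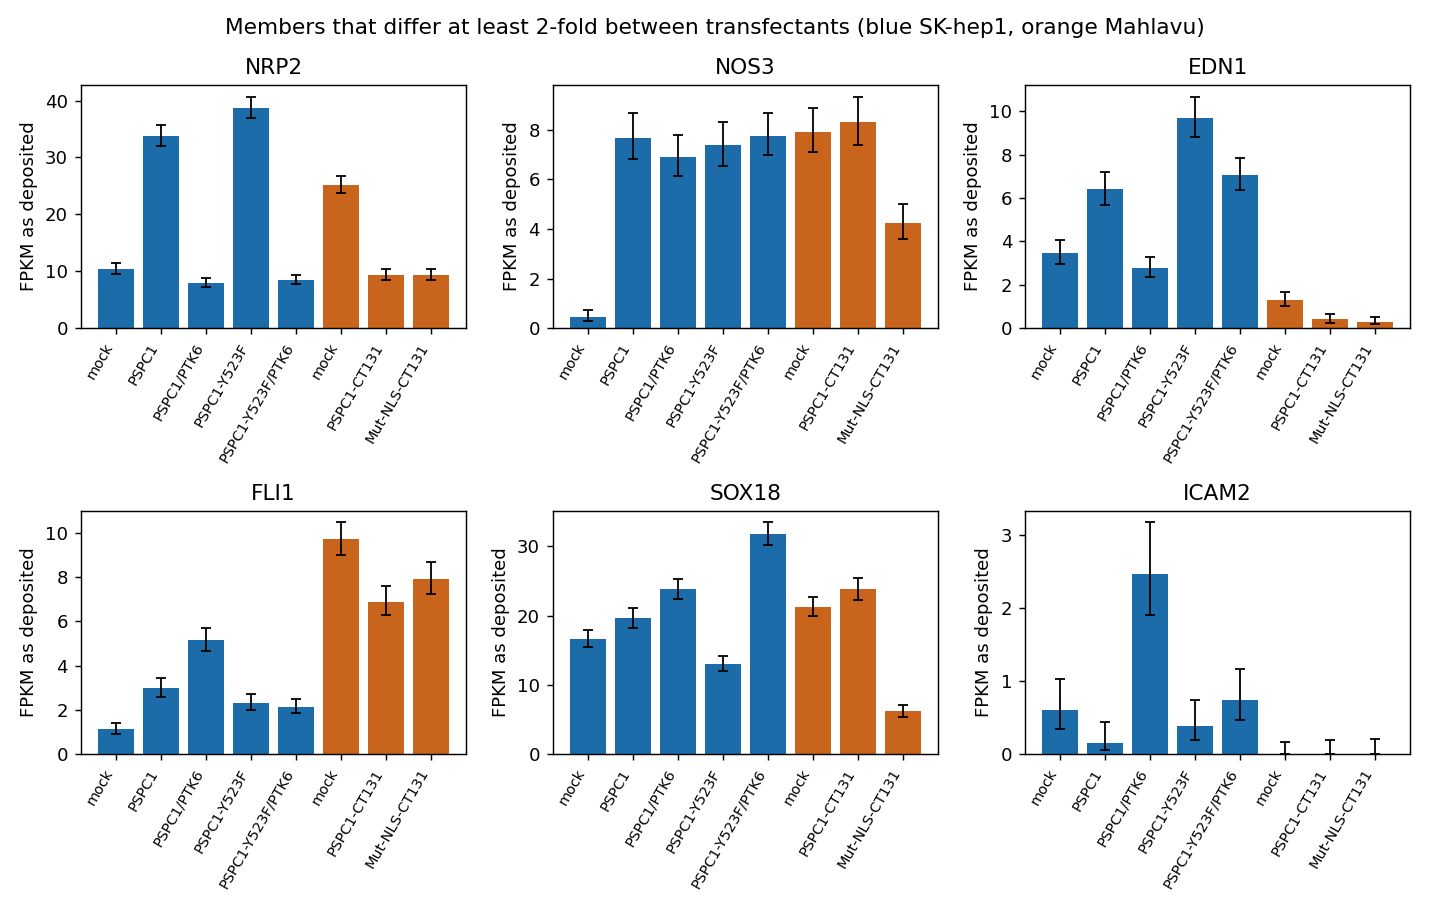
Deposited FPKM of the 6 members that differ at least 2-fold between transfectants, with 1 bar per library, blue for SK-hep1 and orange for Mahlavu, and 95% Wilson intervals of the reads as error bars, which cover counting error only. NOS3 is low in SK-hep1 mock alone, and NRP2 is high in both SK-hep1 libraries with a form of PSPC1 but no PTK6 and in Mahlavu mock.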

How the data were processed

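RNA was sequenced from 10 cell line libraries, 1 per condition, so groups hold 1 sample and no test across replicates was made. For SK-hep1 and Mahlavu the authors deposited read counts and FPKM per gene, and for Huh-7 they deposited FPKM only. The submitters' processing notes name TopHat2 2.0, HTSeq 0.6.1, edgeR and GRCh38.p12, whereas the study's methods name another build and ribosomal RNA depletion where the labels give poly-T beads. Whether reads were counted by strand is not given in the sources used here. Gene positions in the tables equalled GENCODE 29 for 97.5% of genes, and symbols were matched for 57532 of 58302 genes. In each table, 8 lines with no value were left out. For Huh-7, reads and library totals were recovered from the deposited FPKM. This was checked for genes with a recovered length and fewer than 1000 reads, 19070 without and 19059 with HGF. All of these were whole multiples of 1 read within 0.01 reads. Reads were recovered for 22724 of the 25838 genes above 0 FPKM without HGF and for 22456 of 25346 with it.

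Levels are the deposited FPKM. Differences were computed on FPKM quantile normalized over all 10 libraries, as the study's methods describe, with 1 added, among genes averaging 1 FPKM or more in the libraries compared, and a gene was called at 2-fold. Adding 1 understates the change of low genes. Wilson intervals at 95% and a floor of 3 reads per library cover counting error only. Values in every library were given for members at least 2-fold apart between lines or from their control, other members by range and counts, and other lists by counts with the 4 genes of highest mean FPKM that met the same rule. The members, lists and tests were chosen with earlier results of these data known. The alternatives were another added value, the deposited FPKM, other scalings with TMM from edgeR 4.0.16, other filters, leaving out each library in turn and, chosen after seeing the data, a fit that takes out GC content and length. Scripts used R 4.3.3, scipy 1.17.1, pandas 2.3.3, numpy 2.4.6 and matplotlib 3.10.9 under Python 3.11.15, and were tested on simulated data.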

Additional observations from a re-analysis of the deposited data

How the results depend on the processing

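With a minimum of 5 FPKM in place of 1, the members higher in SK-hep1 than in Huh-7 went from 9 to 5, those higher in Mahlavu than in SK-hep1 from 3 to 1, those higher in Huh-7 than in SK-hep1 from 4 to 2, and those 2-fold apart between PSPC1/PTK6 and SK-hep1 mock from 2 to 0, since fewer members pass that filter. The last count was 4 with 0.1 added in place of 1 and 4 with FPKM scaled to sum to 1000000. For PSPC1-Y523F/PTK6 against mock the count of 1 became 2 with 0.1 added and 2 with TMM-scaled reads, and for PSPC1-CT131 against mock 1 became 2 with 0.1 added. The cause of these moves was not tested. The other 124 values of the member counts under an alternative stayed within 1.5 times.

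Leaving out each library in turn gave 3 to 4 members higher in SK-hep1 than in Mahlavu, 9 to 10 higher in SK-hep1 than in Huh-7, 2 to 3 higher in Mahlavu than in SK-hep1, 6 to 8 higher in Mahlavu than in Huh-7, 3 to 4 higher in Huh-7 than in SK-hep1 and 3 to 4 higher in Huh-7 than in Mahlavu. No paired analysis was possible because each condition has 1 library and no result comes from a test.

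Over all genes, the number 2-fold apart moved by more than 1.5 times in these cases. With 0.1 added it went from 691 to 1094 for PSPC1, 656 to 1087 for PSPC1-Y523F, 611 to 947 for PSPC1-Y523F/PTK6, 734 to 1144 for PSPC1-CT131, 772 to 1257 for Mut-NLS-CT131, 76 to 204 for HGF, 613 to 948 for PTK6 added to PSPC1 and 753 to 1205 for PTK6 added to PSPC1-Y523F. With at least 5 FPKM it was 384, 334 and 335 for the first 3 of these, 643 in place of 1018 for PSPC1/PTK6, 5 for HGF, and 357 and 405 for the 2 additions of PTK6. PSPC1-CT131 gave 1196 as deposited and 1479 scaled to 1000000, PTK6 added to PSPC1 gave 935 scaled so, and HGF gave 119 as deposited, 223 scaled so, 117 normalized within its own 2 libraries and 137 with no filter.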
